A study of Xenopus laevis with 46 samples.

Results

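Bone morphogenetic protein (BMP) signalling in the Xenopus laevis blastula was followed through the ligand gene bmp4, the inhibitor genes bambi, smad6 and smad7, and the target gene id3. Members were every entry of the deposited table with 1 of these names, an optional tandem copy number and the ending .L or .S. The endings mark the L and S copies (homeologs) that X. laevis keeps of many genes. The rule gave 12 genes of 49233 distinct names: the L and S copies of bambi, bmp4, id3, smad6, smad6.2 and smad7. Of these, 11 passed the filter on low values, which asked for 10 or more in 3 or more of the libraries in experiment 1, and so were among the 19896 genes tested. The remaining gene, smad6.2.S, was listed at 0 in all 46 libraries. RefSeq gene identifiers matched 11 of the 12 symbols, namely 394401 for bambi.L, 447302 for bambi.S, 397874 for bmp4.L, 399322 for bmp4.S, 379222 for id3.L, 379447 for id3.S, 399369 for smad6.L, 100037050 for smad6.S, 108699473 for smad6.2.L, 394331 for smad7.L and 108707343 for smad7.S.

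Wild-type embryos were injected at the 1-cell stage with 5-ethynyl uridine (EU), a label that is built into RNA as it is made, and both poles were dissected hourly over 5, 6, 7, 8 and 9 hours after fertilisation (hpf). The dose was 10 nl of 50 mM EU (0.5 mM final) and the temperature 22 °C for every library. Vegetal pole (VP) cells give rise to endoderm and animal pole (AP) cells to ectoderm. Experiment 1 held 30 libraries, with 3 libraries in each of 10 groups of region and time, drawn from 3 clutches. Whether equal replicate numbers in different groups share a clutch is not stated in the labels. Experiment 2 held 16 libraries of 1 further clutch, with 2 technical replicates for each region at 6 to 9 hpf, and was not tested on its own. All groups were EU-injected and wild type, and a group without EU was not analysed here. Groups of the same experiment were told apart by region and time, and the experiments differed in clutch and kind of replicate as well.

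BMP ligands bind paired receptor kinases at the cell surface. The receptors activate Smad1 and Smad5, which join Smad4 and switch on target genes in the nucleus. In the frog embryo this pathway favours epidermis over neural tissue in the ectoderm and ventral over dorsal fates in the mesoderm. Several of its inhibitors are made in response to the signal itself and form a negative feedback: bambi encodes a membrane protein that resembles a BMP receptor but lacks its kinase, and smad6 and smad7 encode inhibitory Smads. The gene id3 encodes a helix-loop-helix protein without a DNA-binding region, which holds partner factors off DNA, and is a known early BMP target.

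The deposited values are normalized, rounded read counts. Their depth in reads is unknown, and a library's total lay between 1783721 and 3273514. The number of genes above 0 lay between 4137 and 21140 and differed between libraries of a group. The fewest were found in VP at 8 hpf replicate 2 (4137) and in both VP libraries of experiment 2 at 7 hpf (7306 and 4364). These 3 libraries listed several members at 0. In VP at 8 hpf replicate 2 these were bambi.L, bambi.S, bmp4.S, id3.L, id3.S, smad7.S and both smad6.2 copies, and the second of the 3 VP values given below for 8 hpf is always that library. Markers of the regions went with the labels: at 9 hpf the summed vegetal marker list was 15668 to 37696 in VP and 1080 to 3376 in AP, and the summed animal marker list was 3107 to 3910 in VP and 3973 to 17795 in AP (experiment 1, 3 libraries each). Animal markers were therefore well above 0 in VP too. In bulk tissue, a lower share of expressing cells and less RNA per cell cannot be told apart.

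At 9 hpf both id3 copies were higher than at 5 hpf in both poles, bmp4.S was higher in VP and bambi.L in AP. The copies bmp4.L and bambi.S and all tested smad6 and smad7 copies passed in neither pole. Of the 11 members tested, 3 were called higher in VP at 9 hpf than at 5 hpf (bmp4.S, id3.L and id3.S), where 1.22% of all genes tested were called higher. In AP 3 were called higher (bambi.L, id3.L and id3.S), where 1.72% of all genes were. No member was called lower in limma, where 0.0302% of all genes were in VP and 0.00503% in AP. At an unadjusted p under 0.05 there were 5 members in each pole, beside 8.86% of all genes in VP and 10.3% in AP. A call means an adjusted p under 0.05 in limma on log2(value + 1), adjusted over all 19896 genes by the Benjamini-Hochberg method. The median log2 change of the 11 members was 2.77 in VP, against -0.24 over all genes tested, and 3.53 in AP, against 0.41. The members were chosen with earlier results of these data known. Their comparisons with all genes, here and below, are therefore descriptions and no independent support for a rise.

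The same 6 genes, both copies of bmp4, bambi and id3, had their lowest 9 hpf value above their highest 5 hpf value in VP and in AP. Among all genes tested, 5.44% were separated in this direction in VP and 8.5% in AP. The other 5 members overlapped between the times in both poles. With any 1 of the 3 replicate numbers left out of the model, 0 members were called in either pole. Calls over all genes fell too, from 249 in VP and 343 in AP, counted in either direction. They were 4 in VP and 44 in AP without replicate 1, and 177 and 28 without replicate 2. Without replicate 3 they were 6 and 11. With experiment 2 added as a further clutch, 4 members were called higher in VP and 5 in AP. Over all genes, 474 and 652 were then called in either direction. Experiment 2 has no 5 hpf libraries. In each fit with it added, here and below, it enters only the later time of a comparison with 5 hpf. Its difference from experiment 1 can then not be told apart from time.

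**Figure D1:**
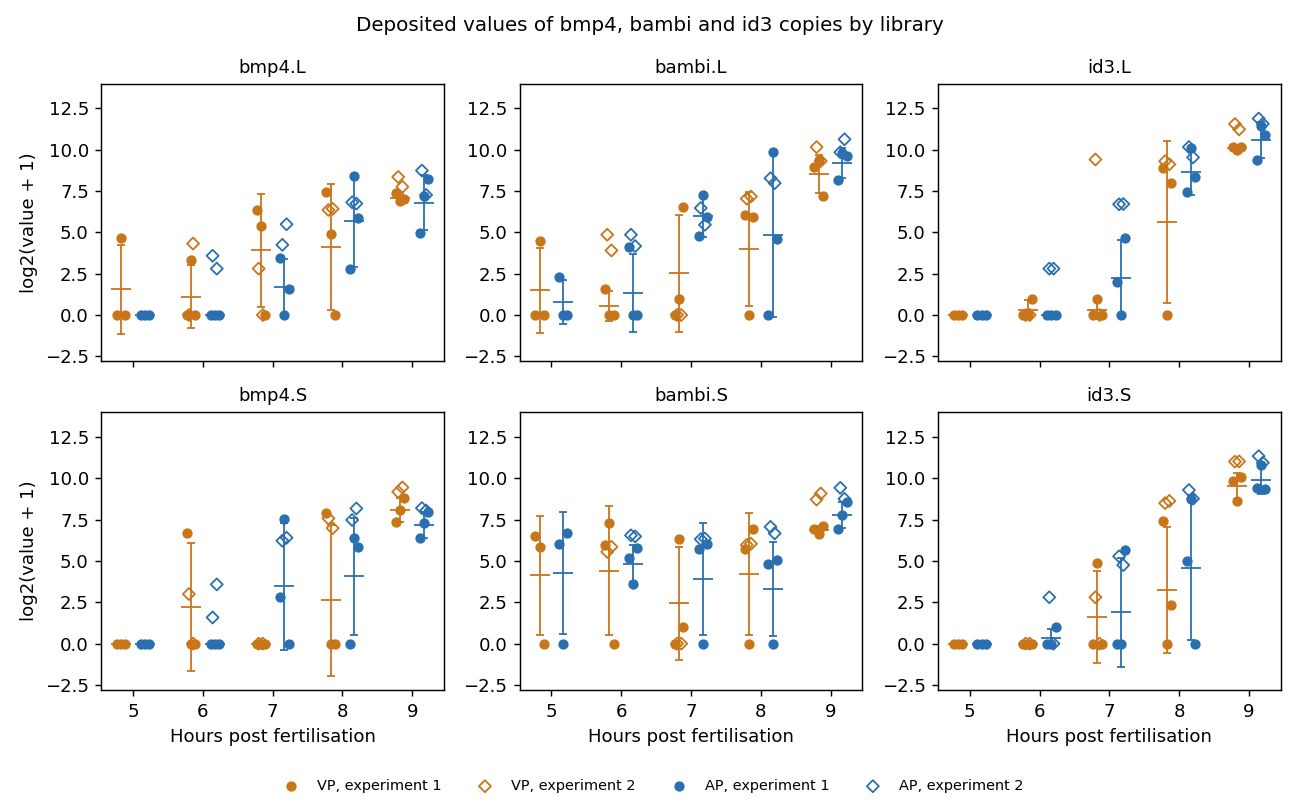
Values of the L and S copies of bmp4, bambi and id3 in each of the 46 libraries, as log2(value + 1) against hours post fertilisation, with VP left of AP at each time. Filled circles are the clutches of experiment 1, with their mean (dash) and SD (bar, n = 3), and open diamonds are the technical replicates of experiment 2. Both id3 copies sit at 0 in every 5 hpf library and at 397 or more at 9 hpf, while bambi.S is above 0 in 4 of the 6 libraries at 5 hpf.

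The target gene id3 went from 0 in every library at 5 hpf to 397 or more in every library at 9 hpf. In VP id3.L had 0 in each library at 5 hpf, 0, 0 and 1 at 6 hpf, 0, 1 and 0 at 7 hpf, 476, 0 and 248 at 8 hpf, and finally 1155, 1021 and 1142 at 9 hpf. In AP it had 0 in each library at 5 and 6 hpf, 3, 0 and 24 at 7 hpf, 172, 1081 and 330 at 8 hpf, and finally 659, 2825 and 1903 at 9 hpf. In experiment 1, every library of 9 hpf stood above every library of 5 to 7 hpf in both poles. The VP library at 0 at 8 hpf is replicate 2, the one with 4137 genes above 0. The difference between 9 and 5 hpf passed in both poles (limma adjusted p = 0.00786 in VP and 0.00727 in AP), and no fold change is given because id3.L was listed at 0 at 5 hpf.

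Its homeolog id3.S followed the same course. At 9 hpf id3.S had values of 935, 397 and 1070 in VP and 687, 1830 and 661 in AP, and it was listed at 0 in all 6 libraries of 5 hpf (limma adjusted p = 0.0117 in VP and 0.0103 in AP). At 8 hpf it was uneven, with 172, 0 and 4 in VP and 31, 431 and 0 in AP. In experiment 2 the VP libraries had id3.L at 0 and 0 at 6 hpf, 679 and 0 at 7 hpf, 632 and 555 at 8 hpf, and finally 3009 and 2408 at 9 hpf. The AP libraries of that clutch had 6 and 6 at 6 hpf, 103 and 104 at 7 hpf, 1146 and 743 at 8 hpf, and finally 3788 and 3039 at 9 hpf, higher at each later time. The VP pair at 7 hpf, 679 and 0, comes from the libraries with few genes above 0.

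No member was called at 6, 7 or 8 hpf against 5 hpf in limma. In VP 0.0101%, 0.00503% and 0.00503% of all genes were called at those times, and in AP 0%, 0.0101% and 0.0653%. At an unadjusted p under 0.05 the members numbered 1, 0 and 1 in VP, beside 4.93%, 2.43% and 6.36% of all genes, and 0, 1 and 2 in AP, beside 3.45%, 3.88% and 6.75%. The lowest adjusted p among them was that of id3.L in AP at 8 hpf (0.208). It passed there once experiment 2 was added (adjusted p = 0.0163) and with 10 added to each value in place of 1 (adjusted p = 0.045).

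The ligand gene bmp4 was at or near 0 at first and was above 0 in every library of both poles at 9 hpf. At 9 hpf bmp4.S had values of 164, 268 and 442 in VP and 82, 155 and 244 in AP, against 0 in all 6 libraries at 5 hpf. The difference passed in VP (limma adjusted p = 0.0464) and missed in AP (adjusted p = 0.0852). The VP call was lost in 7 of 17 alternatives, among them scaling by library totals (limma adjusted p = 0.0529) and 0.5 added in place of 1 (0.0628). Another of the 7 is the fit of both bmp4 copies summed (0.131), which is not a fit of bmp4.S alone. The adjusted p ran from 0.00648 to 0.458 over all 17. For bmp4.L the values at 9 hpf were 165, 120 and 128 in VP and 30, 147 and 297 in AP. At 5 hpf it had values of 0, 24 and 0 in VP, while every AP library had 0, and neither pole passed (limma adjusted p = 0.369 in VP and 0.134 in AP). With experiment 2 added, both copies passed in AP (adjusted p = 0.0347 for bmp4.L and 0.0231 for bmp4.S). When all copies of a name were summed before the fit, bmp4 passed in AP (adjusted p = 0.0495) and not in VP.

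Intermediate times of bmp4 were uneven between clutches in experiment 1. At 8 hpf bmp4.L had values of 174, 29 and 0 in VP and 6, 337 and 57 in AP, and bmp4.S had values of 240, 0 and 0 in VP and 0, 84 and 56 in AP. The technical replicates of experiment 2 had bmp4.L at 81 and 85 in VP and 112 and 106 in AP at that time, and bmp4.S at 190 and 126 in VP and 178 and 289 in AP. At 9 hpf in that clutch bmp4.S was the only bmp4, bambi or id3 copy whose VP values lay wholly above AP, at 583 and 699 in VP and 293 and 265 in AP. At that time id3.L had both VP values below both AP values, and at 8 hpf bambi.L, bambi.S, bmp4.L, id3.L and id3.S did so too. The share of all genes separated in this way in experiment 2 was not counted. No difference between the poles is therefore read from these separations. In experiment 1 the log2 difference of bmp4.S at 9 hpf, VP minus AP, was 0.88 ± 2.32 (SE, n = 3 libraries each, limma adjusted p = 1).

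The pseudoreceptor gene bambi rose past the threshold in its L copy in AP and not in VP, and the interaction test did not pass for it (limma adjusted p = 1). In VP bambi.L had 0, 21 and 0 at 5 hpf, 2, 0 and 0 at 6 hpf, 0, 1 and 93 at 7 hpf, 66, 0 and 59 at 8 hpf, and finally 490, 669 and 147 at 9 hpf. Its log2 fold change of 7.03 ± 2.44 (SE, n = 3 libraries each) did not pass (limma adjusted p = 0.159), and with experiment 2 added it did (adjusted p = 0.0319). The size of this change depends on the 1 added to each value, since 2 of the 3 VP libraries at 5 hpf were at 0.

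In AP bambi.L had 4, 0 and 0 at 5 hpf, 16, 0 and 0 at 6 hpf, 26, 152 and 60 at 7 hpf, 0, 941 and 23 at 8 hpf, and finally 288, 908 and 788 at 9 hpf. The 9 hpf values lay above all earlier ones except the 941 of replicate 2 at 8 hpf. The log2 fold change between 9 and 5 hpf was 8.44 ± 2.44 (SE, n = 3 libraries each, limma adjusted p = 0.0406) and depends on the 1 added to each value, since 2 of the 3 libraries at 5 hpf were at 0. The call was lost in 7 of 17 alternatives, among them scaling by library totals (limma adjusted p = 0.0615), a covariate for genes above 0 (0.0603) and the leaving out of each replicate number (up to 0.426, without replicate 3). Another of the 7 is the fit of both bambi copies summed (limma adjusted p = 0.21), which is not a fit of bambi.L alone. Over all 17 the adjusted p ran from 0.00232 to 0.426. The log2 change ran from 5.40, in that summed fit, to 9.73. The number of genes above 0 was 9245 to 14824 at 9 hpf and 7707 to 17708 at 5 hpf in VP, and 12957 to 17494 at 9 hpf and 8488 to 15727 at 5 hpf in AP. With that number as a covariate the id3 copies were still called in both poles and bmp4.S in VP. Beyond that, its part in these results was not tested.

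The S copy of bambi was above 0 in 4 of the 6 libraries at 5 hpf already, and its change did not pass. At 9 hpf bambi.S had values of 120, 99 and 139 in VP and 124, 224 and 374 in AP. At 5 hpf it had values of 91, 57 and 0 in VP and 65, 0 and 103 in AP. Its log2 fold change was 2.77 ± 2.41 in VP and 3.53 ± 2.41 in AP (SE, n = 3 libraries each), and neither passed (limma adjusted p = 0.82 and 0.744). In experiment 2 bambi.S averaged 481 at 9 hpf and 51.5 at 6 hpf in VP, a ratio of 9.34, and 561 and 91 in AP, a ratio of 6.17. The same ratios of bambi.L in that clutch were 42.4 in VP and 55.7 in AP.

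The ratio of the bambi copies was further towards L at 9 hpf than at 5 hpf. Because copies can differ in length, only the change of their ratio is compared. At 5 hpf bambi.S exceeded bambi.L in 4 of 6 libraries, and in the remaining libraries, AP replicate 2 and VP replicate 3, both were at 0. At 9 hpf bambi.L exceeded bambi.S in 6 of 6. Summed over libraries, the L copy made up 78.5% at 9 hpf and 12.4% at 5 hpf in VP, and 73.3% and 2.33% in AP. The mean log2 ratio of L to S, with 1 added to each value, was 1.52 ± 0.93 at 9 hpf and -3.06 ± 3.07 at 5 hpf (SD, n = 6 libraries each), a difference of 4.58. The 2 libraries with both copies at 0 enter it with a ratio set by the added 1. This ratio was singled out after its values were seen, so it is given as a description and no p-value is reported for it.

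In experiment 2, a separate clutch, the L share was also higher at 9 than at 6 hpf. In VP it was 29% at 6 hpf, 68.3% at 8 hpf and 64.9% at 9 hpf, and at 7 hpf both copies were listed at 0 in both libraries. In AP it was 19.8% at 6 hpf, 45% at 7 hpf, 70.6% at 8 hpf and 69.1% at 9 hpf. In experiment 1 the L share was uneven between libraries at 7 and 8 hpf. In AP it was 33.8%, 100% and 48.8% at 7 hpf, and 0%, 100% and 41.8% at 8 hpf. In VP it was 1.24% and 98.9% at 7 hpf, and 56.4% and 32.6% at 8 hpf. Both copies were at 0 in VP replicate 1 at 7 hpf and VP replicate 2 at 8 hpf. In experiment 1 the difference in the log2 ratio of L to S between 9 and 5 hpf was -0.79 for smad6 and 1.56 for smad7. For bmp4 and id3 the ratio at 5 hpf cannot be read, since the copies were at 0 in all or nearly all of those libraries. The sources used here do not say how the counting split reads between nearly identical copies.

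**Figure D2:**
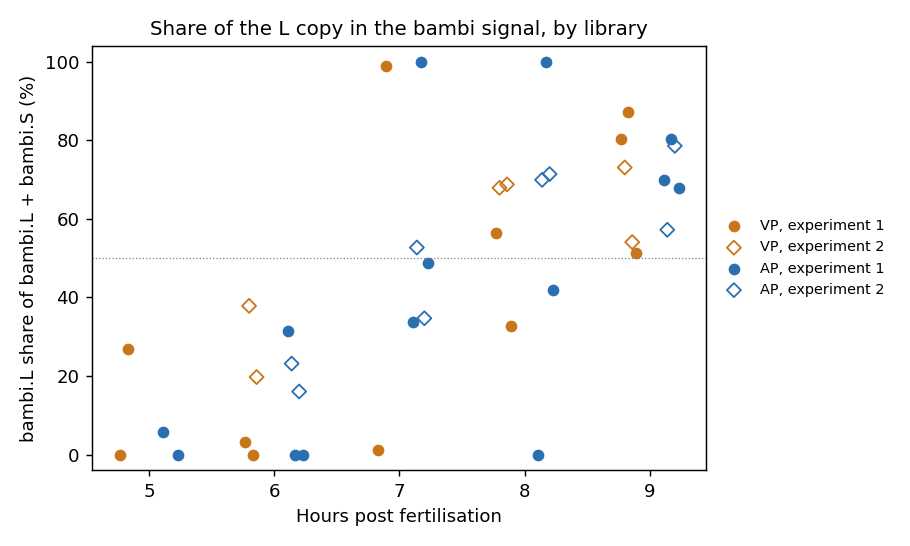
Share of bambi.L in the sum of bambi.L and bambi.S, in percent, in each library where that sum is above 0, against hours post fertilisation, with VP left of AP at each time. The dotted line marks equal values. Filled circles are experiment 1 (3 clutches) and open diamonds experiment 2 (technical replicates of 1 clutch, 6 to 9 hpf). All 5 hpf points lie below the line and all 9 hpf points above it.

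The inhibitory Smad genes were above 0 in most libraries from the first time sampled. At 9 hpf smad7.L had values of 460, 412 and 132 in VP and 149, 426 and 176 in AP, and at 5 hpf 220, 416 and 448 in VP and 175, 0 and 291 in AP. Apart from the single AP library at 0, the ranges of the 2 times overlapped broadly in each pole. Its log2 change was -0.24 ± 1.50 in VP and 2.60 ± 1.50 in AP (SE, n = 3 libraries each, limma adjusted p = 1 and 0.612). Without replicate 2, which holds that 0, the value in AP was -0.48. Its homeolog smad7.S had values of 448, 165 and 5 in VP and 198, 7 and 92 in AP at 9 hpf, against 263, 84 and 139 in VP and 257, 0 and 390 in AP at 5 hpf (log2 change -0.94 ± 2.30 in VP and 0.18 ± 2.30 in AP, or -0.08 in AP after scaling by library totals, SE, limma adjusted p = 0.992 and 1).

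The inhibitory Smad gene smad6, whose product acts mainly on the BMP branch, was likewise above 0 in most libraries: 26 of 30 for smad6.L and 29 of 30 for smad6.S in experiment 1. At 9 hpf smad6.S had values of 89, 72 and 156 in VP and 174, 188 and 252 in AP, against 300, 145 and 236 in VP and 156, 280 and 0 in AP at 5 hpf. For smad6.L the values at 9 hpf were 60, 0 and 94 in VP and 171, 154 and 232 in AP, against 67, 147 and 2 in VP and 91, 456 and 39 in AP at 5 hpf. None of these changes passed (log2 change of smad6.S -1.11 ± 1.69 in VP and 2.52 ± 1.69 in AP, of smad6.L -0.79 ± 2.17 in VP and 0.63 ± 2.17 in AP, SE, limma adjusted p = 0.732 to 1). Of the 8 changes of the smad6 and smad7 copies, 7 turned sign when 1 replicate number was left out, so no direction is given for them. The tandem gene smad6.2.L was above 0 in 8 of 30 libraries of experiment 1, with a highest value of 242 in VP at 9 hpf replicate 1.

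Markers of RNA stored in the egg were also above 0 in these libraries. The summed list of oocyte and egg markers was 5035 to 7051 in VP and 4147 to 5264 in AP at 5 hpf. At 9 hpf it was 2572 to 4390 in VP and 2100 to 3285 in AP. Its part in the early smad6, smad7 and bambi.S values was not tested.

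For experiment 2, smad6.S averaged 189 at 9 hpf and 161 at 6 hpf in VP, and 188.5 and 165.5 in AP, with overlapping replicates. The 9 hpf values of both smad7 copies lay above those of 6 hpf: smad7.L averaged 638 and 376 in VP and 292 and 198.5 in AP, and smad7.S averaged 283.5 and 36.5 in VP and 190 and 62 in AP. The ratio of 9 to 6 hpf for smad7.L was 1.70 in VP and 1.47 in AP. Library totals were higher at 9 hpf too. In VP they were 3273514 and 3118317 at 9 hpf, against 1901519 and 1921172 at 6 hpf. In AP they were 3244010 and 3077580, against 2039417 and 2028603. The share of all genes separated in this way was not counted, and no rise of smad7 is read from it. These are technical replicates of 1 clutch, so no test was made.

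**Figure D3:**
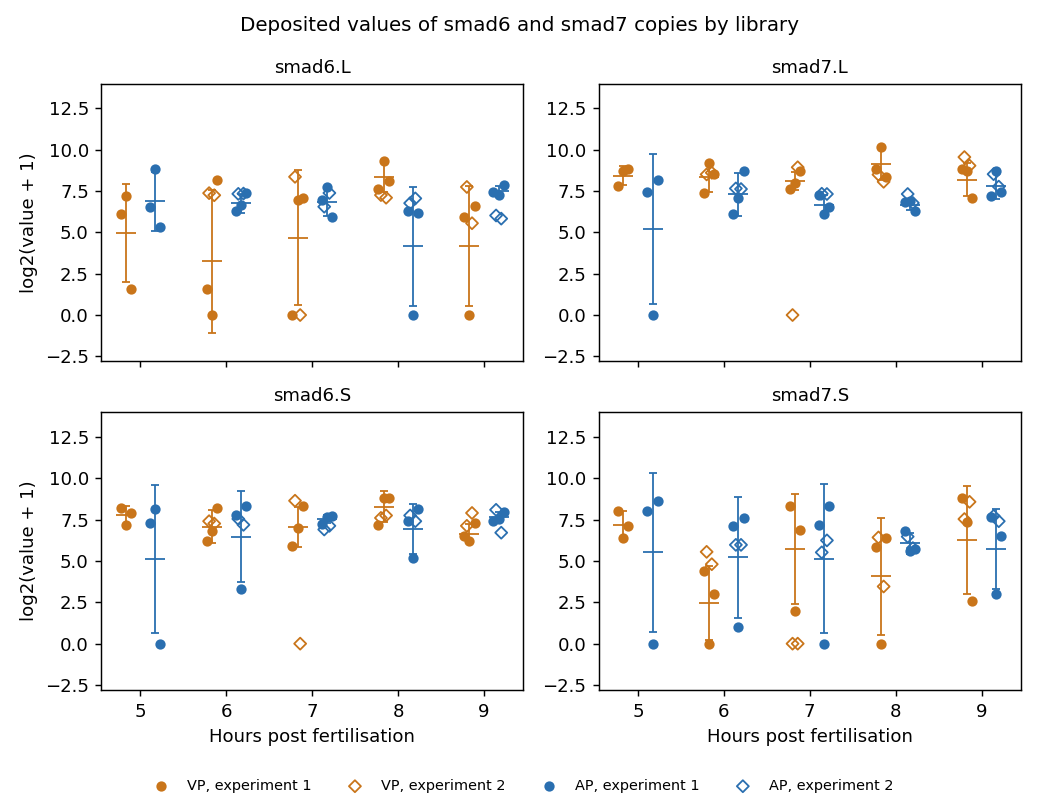
Values of the L and S copies of smad6 and smad7 in each of the 46 libraries, as log2(value + 1) against hours post fertilisation, with VP left of AP at each time. Filled circles are the clutches of experiment 1, with their mean (dash) and SD (bar, n = 3), and open diamonds are the technical replicates of experiment 2. Most libraries lie above 0 from 5 hpf on, and the ranges of 5 and 9 hpf overlap.

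The poles were compared to see whether BMP ligand and feedback genes were transcribed more in one region. No member was called between VP and AP in limma at any time, where 0.0955%, 0.0251%, 0.0101%, 0% and 0.377% of all genes were called at 5, 6, 7, 8 and 9 hpf. At an unadjusted p under 0.05, 1 member was found at 5 hpf (smad7.L) and 0 at the other times, beside 4.29%, 6.36%, 3.48%, 6.78% and 7.19% of all genes from 5 to 9 hpf. At 9 hpf the log2 differences, VP minus AP, ran from -3.36 ± 2.17 for smad6.L to 0.88 ± 2.32 for bmp4.S (SE, n = 3 libraries each, limma adjusted p = 0.812 and 1). Their median was -0.35, and that of all genes tested was -0.53. With standard errors this wide, even large differences between the poles could go uncalled, and no absence of a difference is read. A log2 change of 7.03 for bambi.L in VP between 9 and 5 hpf did not pass (limma adjusted p = 0.159), though its size depends on the added 1. No member passed the limma interaction test of the change between 5 and 9 hpf between the poles (adjusted p = 0.951 to 1), and 0% of all genes did. At an unadjusted p under 0.05 the interaction gave 0 members and 5.24% of all genes.

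At 9 hpf smad6.L and smad6.S had all VP values below all AP values, as given above, and the other 9 members overlapped. Among all genes tested, 5.7% were separated in that direction. In experiment 2 the smad6 copies did not repeat it: smad6.L had values of 214 and 46 in VP and 64 and 56 in AP, and smad6.S had values of 139 and 239 in VP and 273 and 104 in AP.

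The largest difference between the poles averaged over the 5 times was that of smad7.L. It was higher in VP by 1.72 ± 0.67 (log2, SE, 15 libraries of each pole), which failed the correction (limma adjusted p = 0.324, unadjusted p = 0.0105). No member was called in this averaged comparison, where 0.709% of all genes were called and 10.1% had an unadjusted p under 0.05. In experiment 2, smad7.L had values of 363 and 389 in VP and 201 and 196 in AP at 6 hpf, 360 and 266 in VP and 159 and 109 in AP at 8 hpf, and 752 and 524 in VP and 367 and 217 in AP at 9 hpf. At each of these times both VP libraries lay above both AP libraries, by 1.89, 2.34 and 2.18 times on their means. They are technical replicates of 1 clutch, and the share of all genes separated in this way was not counted. At 7 hpf it had values of 0 and 490 in VP and 161 and 159 in AP, with the 0 in the VP library that had 7306 genes above 0. With experiment 2 in the model the averaged difference was 1.65 (log2, limma adjusted p = 0.167), and over all alternatives it lay between 0.99 and 2.16 with an adjusted p of 0.061 to 0.584.

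**Figure D4:**
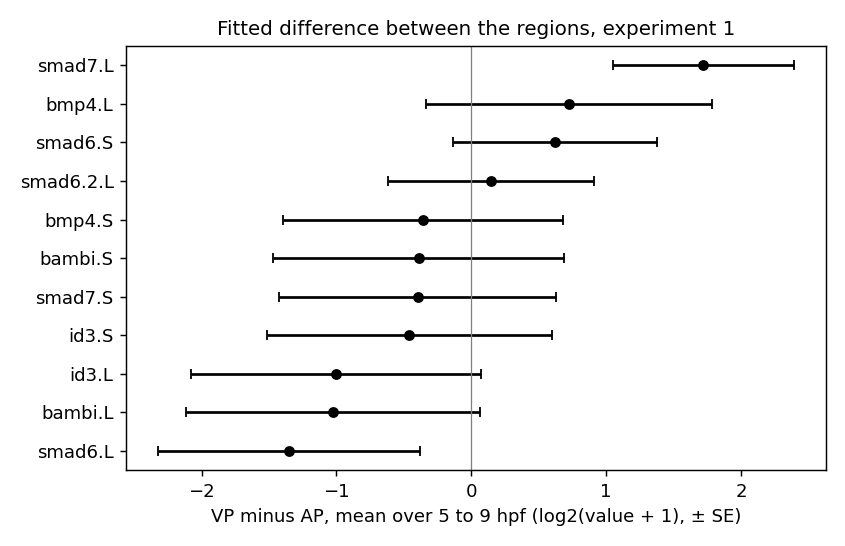
Fitted difference between VP and AP averaged over 5 to 9 hpf for the 11 tested members, on the log2(value + 1) scale with its SE, from 15 libraries of each pole in experiment 1. The points run from -1.35 for smad6.L to 1.72 for smad7.L, and no member passed the adjusted threshold.

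Across conditions the order of the mean levels was led by 9 hpf for the copies of bmp4, bambi and id3. For id3.L the order of means was AP at 9 hpf (1796 ± 1087), VP at 9 hpf (1106 ± 73.9), AP at 8 hpf (527.7 ± 486) and VP at 8 hpf (241.3 ± 238; SD, n = 3 each). For bambi.L it was AP at 9 hpf (661.3 ± 329), VP at 9 hpf (435.3 ± 265), AP at 8 hpf (321.3 ± 537) and AP at 7 hpf (79.3 ± 65.2). Neighbouring groups in the order had overlapping ranges of single libraries throughout, so the order of neighbours is not resolved for any member.

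The wider BMP pathway was described with lists of ligands, secreted inhibitors, receptors, Smads and target transcription factors, chosen with earlier results of these data known. Leaving out the members, 18 of 83 tested genes were higher at 9 than at 5 hpf in VP and 15 in AP, with 9 in both, and 0 were lower (limma). Most of them were target transcription factors, of which 14 of 33 passed in VP and 16 in AP, members included. All genes tested were called higher at 1.22% in VP and 1.72% in AP, and whether the poles differ in these counts was not tested. Several ventx genes, which encode ventralising homeobox factors, passed in both poles. At 9 hpf ventx2.2.S had values of 3400, 2627 and 3180 in VP and 1216, 5653 and 2625 in AP, against 0 in all 6 libraries at 5 hpf (limma adjusted p = 0.000703 in VP and 0.000224 in AP).

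Other targets passed in 1 pole. At 9 hpf ventx3.2.L had 562, 678 and 1634 in VP (limma adjusted p = 0.00395), and 0, 132 and 22 in AP (adjusted p = 0.58). The epidermal and neural crest factor gene tfap2a.L had 172, 497 and 205 in VP at 9 hpf (limma adjusted p = 0.0617), and 475, 2265 and 1434 in AP (adjusted p = 0.00864). Both genes were listed at 0 in all 6 libraries at 5 hpf. Between VP and AP at 9 hpf, neither differed past the threshold (limma adjusted p = 0.354 for ventx3.2.L and 0.922 for tfap2a.L). In the comparison averaged over 5 to 9 hpf, 1 of the 83 tested list genes was called lower in VP, a target transcription factor. None was called higher, and 0.0704% of all genes were called lower.

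Among ligands, bmp4.S, admp.L and admp.S passed in VP, 3 of 9 tested, and 0 passed in AP. The ligand gene admp, an organizer BMP, had 874, 467 and 260 for its S copy in VP at 9 hpf and 0, 146 and 0 in AP, with 0 in all libraries at 5 hpf (limma adjusted p = 0.0114 in VP and 0.85 in AP). Another ligand, bmp7.2.L, had values of 301, 420 and 251 in VP and 572, 2125 and 1821 in AP at 9 hpf, and missed the threshold (limma adjusted p = 0.465 in VP and 0.197 in AP). Of the secreted inhibitors, 3 of 11 passed in VP and 0 in AP, all of them copies of chordin, which binds BMPs outside the cell. There chrd.1.S had values of 2112, 906 and 506 in VP and 32, 398 and 36 in AP at 9 hpf, against 0 at 5 hpf (limma adjusted p = 0.00548 in VP and 0.149 in AP). Over all genes 1.22% were called higher in VP and 1.72% in AP, so 0 in AP is near that share. Between the poles at 9 hpf 0 ligands and 0 secreted inhibitors were called, beside 0.377% of all genes. The interaction gave 0 of both, beside 0% of all genes. No difference between the poles is read from these counts.

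Of 11 receptor genes 0 passed in limma in either pole, which is near the share of all genes called higher (1.22% in VP and 1.72% in AP) and is no result about receptors. Here acvr1.S, a type I receptor, had values of 217, 175 and 0 in VP and 228, 334 and 255 in AP at 9 hpf, against 221, 234 and 147 in VP and 245, 308 and 119 in AP at 5 hpf. Of 8 signalling Smad genes, smad4.1.L passed in AP (24, 247 and 235 at 9 hpf, limma adjusted p = 0.0147). Beside bambi.L in AP, the intracellular and membrane inhibitors gave ski.L, a Smad corepressor, in VP. There ski.L had 536, 175 and 941 at 9 hpf against 0, 50 and 0 at 5 hpf (log2 fold change 6.91 ± 1.93, SE, n = 3 libraries each, limma adjusted p = 0.0388). The size of this change depends on the 1 added to each value, since replicates 1 and 3 were at 0 at 5 hpf. In AP ski.L was above 0 at both times, with 203, 339 and 360 at 9 hpf against 56, 165 and 236 at 5 hpf, and did not pass.

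Across the 30 libraries of experiment 1, Pearson's r with the mean of the members was 0.914 for id3.L, 0.897 for id3.S, 0.850 for bambi.L, 0.765 for bmp4.S and 0.737 for bmp4.L. It was 0.545 for bambi.S and between 0.081 and 0.310 for the smad6 and smad7 copies other than smad6.2.L. In the 16 libraries of experiment 2 the split was not the same: r was 0.822 for id3.L, 0.918 for id3.S, 0.961 for bambi.L, 0.941 for bmp4.S, 0.928 for bmp4.L, 0.874 for bambi.S, 0.836 for smad7.S, 0.555 for smad6.S, 0.357 for smad6.L and 0.313 for smad7.L. These 16 include both VP libraries at 7 hpf, with 7306 and 4364 genes above 0. There bambi.L, bambi.S, bmp4.S and smad7.S were at 0 in both, and the part of these libraries in the r was not tested. The mean includes each member, the libraries share time, and the r of the mean with the log2 number of genes above 0 was 0.449 in experiment 1. Genes outside the members whose pattern was among the most like that mean were akap12.L (r = 0.916), stard13.L (0.913), LOC108715921 (0.910) and LOC100036828 (0.910). Their r in experiment 2 was 0.910, 0.926, 0.960 and 0.505, in the same order.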

How the data were processed

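EU-labelled RNA was captured on beads from 46 libraries, per the labels' protocols. The authors used Salmon 0.12.0 for quantification and DESeq2 for normalization, per the submitters' processing notes. The deposited values, whose unit is score, are whole numbers read here as rounded, normalized read counts. The sources used here give no genome build or annotation. Of 50489 entries, 1256 repeated a gene name and were summed with it. Genes reaching 10 in 3 or more experiment 1 libraries entered limma 3.58.1 (R 4.3.3) on log2(value + 1), with a mean-variance trend, robust variances and 1 term for each region and time. A fold change on this scale can understate the change of low genes, and a library at 0 at the earlier time can make it overstate the change. For smad7.L in AP, the log2 change of 2.60 between 9 and 5 hpf went with group means of 250.3 and 155.3. P-values were adjusted over all 19896 genes by the Benjamini-Hochberg method, and the model was tested on simulated data. The design had planned a count test for raw counts. Depth in reads is unknown. Groups came from the labels. Replicates of experiment 1 are biological, from 3 clutches, and those of experiment 2 technical, per the series' design. Genes named beside the members are called list genes, those of highest mean that missed the threshold and the 5 most alike, of which 1 is not reported here. A RefSeq table gave gene identifiers for 11 of 12 members. Members and lists were chosen with earlier results of these data known. Alternatives covered scaling, filter, added constant, library weights, a covariate, a replicate block, experiment 2 added, copies summed and libraries left out.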

Additional observations from a re-analysis of the deposited data

Results flagged for a closer look

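In 3 cases every library of a pole lay on one side of that pole's 5 hpf mean log2 value and every library of the other pole on the opposite side of its own. These cases were picked out from the 11 members tested, over the later times. The share of all genes tested that meet the same rule was not counted. How often the rule is met without a difference between the poles is therefore unknown, and no such difference is read from these cases. No explanation was tested.

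The change of smad6.L between 5 and 8 hpf, VP minus AP, was 6.14 on the log2 scale. It had values of 194, 645 and 279 in VP and 77, 0 and 71 in AP at 8 hpf, against 67, 147 and 2 in VP and 91, 456 and 39 in AP at 5 hpf. This difference was not tested. VP at 8 hpf replicate 2, with 645, is the library with 4137 genes above 0.

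For smad7.S between 5 and 8 hpf the same difference was -3.64. It had values of 56, 0 and 83 in VP and 112, 48 and 53 in AP at 8 hpf, against 263, 84 and 139 in VP and 257, 0 and 390 in AP at 5 hpf. This difference was not tested either. It rests on zeros on the log scale, in AP replicate 2 at 5 hpf and in VP replicate 2 at 8 hpf, the library with 4137 genes above 0. The group means at 8 hpf were below those at 5 hpf in both poles, at 46.3 and 162 in VP and at 71 and 215.7 in AP.

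For smad6.S between 5 and 9 hpf the difference was -3.63 ± 2.39 (SE), and the limma interaction test did not pass (adjusted p = 0.951). At 9 hpf the values were 89, 72 and 156 in VP and 174, 188 and 252 in AP, against 300, 145 and 236 in VP and 156, 280 and 0 in AP at 5 hpf. The 0 is AP replicate 3 at 5 hpf.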

How the results depend on the processing

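In VP at 9 against 5 hpf the count was 1 of the families with copies summed, and 0 to 0 when 1 replicate number was left out, against 3 as reported. In AP it was 5 with experiment 2 added, with or without its VP 7 hpf libraries, and 0 to 0 with 1 replicate number left out, against 3 as reported. Experiment 2 has no 5 hpf libraries and enters these fits at the later time alone. In AP at 8 against 5 hpf it was 1 with 10 added to each value and with experiment 2 added, with or without its VP 7 hpf libraries. Over all genes, calls there were 39 with 10 added, 89 with all of experiment 2 and 99 without those libraries. The main fit called 13. The other 243 count results stayed within 1.5 times, among them 2 in each pole at 9 against 5 hpf with library totals or with 0.5 added. Most of the 243 are counts of 0 in the main fit that stayed at 0. Only the comparisons of 9 with 5 hpf within a pole had calls in the main fit. The 243 therefore say little about how steady those calls are.

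The replicate number as a block left 3 members called in each pole. Over all genes, calls with it were 311 against 249 in VP and 448 against 343 in AP. Residual correlations between the poles were -0.0237 to 0.103 for equal numbers (median 0.0279) and -0.113 to 0.0777 for unequal numbers (median -0.0129). Of 30 libraries, 21 correlated best with their own number, out of the 3 numbers of the other pole at the same time. These were 10 of 15 in AP and 11 of 15 in VP. If the number made no difference, 1 in 3 would be expected, and the excess was not tested. Whether equal numbers share a clutch is not settled by these values, and the main model had no replicate term. The bambi ratio difference was 3.50 to 5.33 with 1 replicate number left out and 3.20 to 4.94 under other settings, all chosen after the data were seen.

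Signs turned in uncalled log2 changes between 9 and 5 hpf. For smad7.S in AP the change was -0.080 scaled by library totals, -0.52 with 10 added and -1.47 with the covariate. For smad7.L in VP it was 0.044 with experiment 2 added (with or without its VP 7 hpf libraries) and 0.067 with library weights. With 1 replicate number left out, the ranges were -3.68 to 2.41 in VP and -0.33 to 1.72 in AP for smad6.L, -0.21 to 4.07 in AP for smad6.S, -0.88 to 0.52 in VP and -0.48 to 4.25 in AP for smad7.L, and -1.89 to 0.87 in VP and -1.22 to 1.31 in AP for smad7.S. The averaged pole difference of smad6 with copies summed was 0.12. The cause was not tested. Scaling by library totals moved the median log2 change of all genes between 9 and 5 hpf in AP to 0.26, against 0.41. With 3 clutches and standard errors of 1.5 to 2.4 log2 units, even large differences can go uncalled. The change of 7.03 log2 units for bambi.L in VP between 9 and 5 hpf did not pass, though its size depends on the added 1.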
